A study of Mus musculus with 6 samples.

Results

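Siglecs are immunoglobulin-type lectins of the leukocyte surface that bind sialic acids, the sugars that cap the glycans of most vertebrate cells. 4 genes of the family are described here, namely Cd22, Siglece, Cd33 and Siglec1. They were taken as every probe set of the array whose annotation names exactly 1 gene symbol, and that symbol is 1 of these 4. This gave 7 probe sets for 4 genes of the 18193 genes with a symbol of their own on the array, 2 for Cd22, 3 for Siglec1 and 1 each for Siglece and Cd33. The 4 genes were selected on their array values, with the difference between the genotypes on these same 6 arrays known, so their values in that comparison are a description without a test.

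Macrophages were grown from the bone marrow of mice without vimentin (3 arrays, called vimentin-deficient) and of wild-type littermates (3 arrays), all 17 weeks old, on a C57BL/6 background and kept on chow. Vimentin forms the intermediate filaments of macrophages and of mesenchymal cells. Marrow flushed from the femur was grown in both groups in medium with supernatant of the CMG14-12 cell line, a source of mouse M-CSF, under normoxia. Samples of 1 genotype are described as biological replicates, and the labels do not say how vimentin was removed, in which cells, or whether marrow of several animals was pooled. The study's design text is about atherosclerosis after transplantation of vimentin-deficient marrow into mice that lack the low-density lipoprotein receptor, and the arrays hold the cultured macrophages only.

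Most Siglecs carry immunoreceptor tyrosine-based inhibitory motifs (ITIMs) in the cytoplasmic tail, which recruit the phosphatases SHP-1 and SHP-2 and dampen signals of activating receptors. Others have no such motif and signal through the adaptor DAP12 or serve adhesion and uptake. On macrophages the family is known for restraining responses to self surfaces that carry sialic acid, and Siglec1 for catching sialylated particles, viruses and vesicles.

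Each value is the log2 level of a probe set as the authors deposited it. The level of a probe set is not set against that of another, because each has its own brightness. Summed levels of marker lists, given below on the linear scale, are dominated by their brightest probe sets and are compared between arrays only. A mean of 6.93 over the 6 arrays, the 40th percentile of the probe sets that are not controls, was the limit below which a gene was left out of the test. All 4 genes and all 7 probe sets lay above it. Siglec1 probe set 1427668_at did so only through vimentin-deficient replicate 3, at 8.30, as its values on the other arrays were 6.73 to 6.87. The brightest Vim probe set read 8.20, 6.96 and 7.13 on the vimentin-deficient arrays and 13.41, 13.24 and 13.31 on the wild-type arrays, so the arrays went with their labels. Vimentin-deficient replicate 3 stood apart, with correlations of 0.975 to 0.979 with the other arrays across probe sets, where the other 5 reached 0.992 to 0.998 among themselves. The 4 genes are therefore given with and without it. So are the differences printed for other named genes that it moved by over 1.5 times. Some genes, such as Oas2, Fcgr1, Itgam and Kit, are given by their array values without a difference between the genotypes. The macrophage markers Cd68, Csf1r, Adgre1, Mertk, Fcgr1, Lyz2, Cd14 and Itgam were all above the limit, 8 of 8. In these bulk cultures, fewer cells of a type and less RNA per cell cannot be told apart.

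The promoters of 3 of the 4 genes, all on chromosome 7, are in the RefSeq table used here. They are shown beside the course of each gene over the arrays. Cd22 was lower on all 3 vimentin-deficient arrays. Cd33 and Siglece both had replicates 1 and 2 above and replicate 3 below all wild-type arrays, with ranges of 1.88 and 0.29. Each promoter runs from 250 bases before to 50 after the listed start, 5′ to 3′ on the gene's strand. Capitals mark GAGGAA or its reverse complement TTCCTC, the core letters to which PU.1 and other ETS factors of myeloid cells bind.
Cd22 promoter, chr7:30878979-30879278 (GRCm38.p6, minus strand): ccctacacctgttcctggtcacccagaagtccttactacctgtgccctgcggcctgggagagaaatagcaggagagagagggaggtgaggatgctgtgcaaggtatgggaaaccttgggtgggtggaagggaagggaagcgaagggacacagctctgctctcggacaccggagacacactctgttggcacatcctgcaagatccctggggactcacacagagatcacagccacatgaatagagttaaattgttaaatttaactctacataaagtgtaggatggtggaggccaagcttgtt
Siglece promoter, chr7:43660112-43660411 (GRCm38.p6, minus strand): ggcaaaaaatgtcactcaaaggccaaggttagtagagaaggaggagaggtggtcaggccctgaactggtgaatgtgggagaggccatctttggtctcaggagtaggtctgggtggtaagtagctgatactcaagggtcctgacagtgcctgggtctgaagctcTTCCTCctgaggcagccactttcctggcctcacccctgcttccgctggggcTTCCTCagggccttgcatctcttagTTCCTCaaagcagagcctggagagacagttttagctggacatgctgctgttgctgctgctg
Cd33 promoter, chr7:43533122-43533421 (GRCm38.p6, minus strand): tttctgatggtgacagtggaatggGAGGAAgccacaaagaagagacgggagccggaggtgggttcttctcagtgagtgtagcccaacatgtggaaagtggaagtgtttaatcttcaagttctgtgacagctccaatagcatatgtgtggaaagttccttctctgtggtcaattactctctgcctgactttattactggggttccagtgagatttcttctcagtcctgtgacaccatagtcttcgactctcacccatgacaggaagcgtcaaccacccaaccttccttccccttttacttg
Both strands were searched for GAGGAA, for the core of the interferon-stimulated response element (GAAA, any 2 bases, GAAA), and for TTCNNNGAA, the gamma-activated site. GAGGAA letters were found 3 times in the Siglece window and 1 time in the Cd33 window, and not in that of Cd22. Of 32851 promoters of this length in the table, 28.3% held it. The response element core, in 3.44% of promoters, and the gamma-activated site, in 8.3%, were in none of the 3 windows. A match is a description of letters, and a missing match says only that these letters are not in this window.

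Cd22 read lower on all 3 vimentin-deficient arrays. CD22 is an ITIM-bearing Siglec best known as an inhibitory co-receptor of the B cell antigen receptor, and in mouse microglia as a brake on phagocytosis. Its brighter probe set, 1419768_at, read 8.47, 8.68 and 8.76 on vimentin-deficient replicates 1, 2 and 3, against 9.08, 9.10 and 9.07 on the wild-type arrays. The groups did not overlap, and the wild-type arrays lay within 0.03 of each other. The mean difference was -0.44 on the log2 scale (SE 0.09), from 8.64 ± 0.15 in vimentin-deficient and 9.08 ± 0.02 in wild-type macrophages (SD, n = 3 each), or 1.36-fold lower.

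The second Cd22 probe set, 1419769_at, gave the same picture. It read 6.95, 7.12 and 7.08 on vimentin-deficient arrays and 7.39, 7.40 and 7.54 on wild-type arrays, again without overlap, with a difference of -0.39 (SE 0.07, 1.31-fold). On both probe sets replicate 1 was the lowest array, and replicate 3 lay 0.19 above the mean of replicates 1 and 2 on the first and 0.05 above it on the second. Without replicate 3 the difference of the brighter probe set was -0.50 (SE 0.08). Of the 13445 tested genes, 141 had a lower difference than Cd22 with 6 arrays and 75 without replicate 3.

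Since Cd22 is a B cell gene, B cell markers are given beside it. Of 10 measured markers 4 were above the limit, Pax5, Ebf1, Vpreb3 and Blnk. Pax5 read 7.05 to 7.22 on vimentin-deficient and 7.14 to 7.20 on wild-type arrays. Ebf1 read 7.67 to 7.75 and 7.63 to 7.71, and Vpreb3 7.78 to 7.87 and 7.83 to 8.08. The groups overlapped for each of these. Cd79a, Cd79b and Ms4a1 were below the limit. Cd79a read 6.72, 6.97 and 6.81 on vimentin-deficient arrays and 6.87, 6.91 and 6.76 on wild-type arrays, so those groups overlapped. Blnk, an adaptor of the B cell receptor that macrophages express too, read 11.18, 11.19 and 11.28 on vimentin-deficient and 11.38, 11.56 and 11.66 on wild-type arrays (log2 difference -0.32, SE 0.09, limma adjusted p = 0.465). The summed linear level of the 10 markers was 3416 to 3615 on vimentin-deficient and 3826 to 4389 on wild-type arrays. Most of that sum was Blnk, and the other 9 summed to 1098 to 1203 on vimentin-deficient and 1155 to 1210 on wild-type arrays, which overlap. The B lineage gene Ighm is not in this list and is given below with the counter-receptors. Its brightest probe set read 9.92, 9.87 and 8.82 on vimentin-deficient and 10.70, 10.96 and 10.91 on wild-type arrays, so it was lower on all 3. Of its 5 probe sets above the limit, 3 had lower and 2 had higher means. The part of these cells or genes in the Cd22 difference was not tested.

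Cd33 differed in opposite directions among the vimentin-deficient arrays. CD33, which gave the family's largest branch its name, is a myeloid Siglec. The human protein carries ITIMs and restrains uptake by microglia, and the tail of the mouse protein differs from it. The probe set read 9.81, 9.79 and 7.93 on vimentin-deficient replicates 1, 2 and 3, against 9.30, 9.46 and 9.41 on the wild-type arrays. Replicates 1 and 2 lay above all wild-type arrays and replicate 3 below all of them, a pattern shared by 4.37% of tested genes.

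The mean difference of Cd33 was -0.21 (SE 0.48), from 9.18 ± 1.08 in vimentin-deficient and 9.39 ± 0.08 in wild-type macrophages (SD, n = 3 each). The spread between the vimentin-deficient arrays was larger than this difference. Without replicate 3 it turned to 0.41 (SE 0.08), 1.33-fold higher. Replicate 3 lay 1.88 below the mean of replicates 1 and 2, which is 3.67-fold, and 57 of 13445 tested genes were lower still by that measure. On that array 1.71% of tested genes lay over 1 log2 unit below replicates 1 and 2, and 0.937% over 1 above. On the same array the integrin gene Itgam read 9.60, where the other vimentin-deficient arrays read 10.62 and 10.49 and the wild-type arrays 10.30 to 10.41. Of the other 7 macrophage markers, Cd68 was -0.03 from the mean of replicates 1 and 2 on replicate 3, and the remaining 6 lay 0.28 (Lyz2) to 1.61 (Fcgr1) above it, so Itgam went against most of its list there. The receptor tyrosine kinase gene Kit, of progenitors and mast cells, read 7.20 there, against 9.05 and 8.68 on the other vimentin-deficient arrays and 8.52 to 8.64 on the wild-type arrays. The other 4 mast cell and basophil markers, Mcpt8, Cpa3, Ms4a2 and Fcer1a, were below the limit. The summed linear level of these 5 markers was 481 to 874 on vimentin-deficient and 716 to 747 on wild-type arrays, and without Kit it was 334 to 353 and 348 to 353. Their part in the Cd33 value was not tested.

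Siglece stayed within a narrow band. Siglec-E is an inhibitory receptor of mouse neutrophils, monocytes and macrophages with an ITIM in its tail. Its probe set read 7.23, 7.25 and 6.96 on vimentin-deficient replicates 1, 2 and 3, against 7.14, 7.09 and 7.16 on wild-type arrays. The groups overlapped, with 2 vimentin-deficient arrays above and 1 below all wild-type arrays. As for Cd33, replicate 3 was the lowest of the 6 arrays, on a range of 0.29 where Cd33 spanned 1.88. The difference was 0.01 (SE 0.08) with 6 arrays and 0.11 (SE 0.05) without replicate 3. All 6 values were close to the limit of 6.93, where background signal can compress differences, which was not tested here.

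Siglec1 was high on a single vimentin-deficient array. Siglec-1 (sialoadhesin, CD169) is a macrophage receptor with a long extracellular part and no ITIM, and its gene is known to be induced by type I interferon. The brightest probe set, 1422161_at, read 7.48, 7.52 and 8.89 on vimentin-deficient replicates 1, 2 and 3, against 7.68, 7.56 and 7.54 on wild-type arrays. Replicates 1 and 2 were below all wild-type arrays, by a difference from the wild-type mean of -0.11 and -0.08, and replicate 3 was 1.30 above that mean, or 2.46-fold.

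The other Siglec1 probe sets also had their highest value on replicate 3. Probe set 1427668_at read 6.84, 6.87 and 8.30 on vimentin-deficient arrays and 6.78, 6.73 and 6.73 on wild-type arrays. Here the groups did not overlap, but replicates 1 and 2 were within 0.12 of the wild-type mean. Probe set 1427706_a_at read 7.42, 7.46 and 8.12 on vimentin-deficient arrays and 7.47, 7.45 and 7.49 on wild-type arrays. The mean difference of the brightest probe set was 0.37 (SE 0.36), from 7.96 ± 0.80 in vimentin-deficient and 7.59 ± 0.08 in wild-type macrophages (SD, n = 3 each), and -0.09 (SE 0.06) without replicate 3. Without that array the other 2 probe sets had differences of 0.10 (SE 0.05) and -0.03 (SE 0.06). By its distance from replicates 1 and 2, replicate 3 was higher for 51 of 13445 tested genes than for Siglec1.

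**Figure D1:**
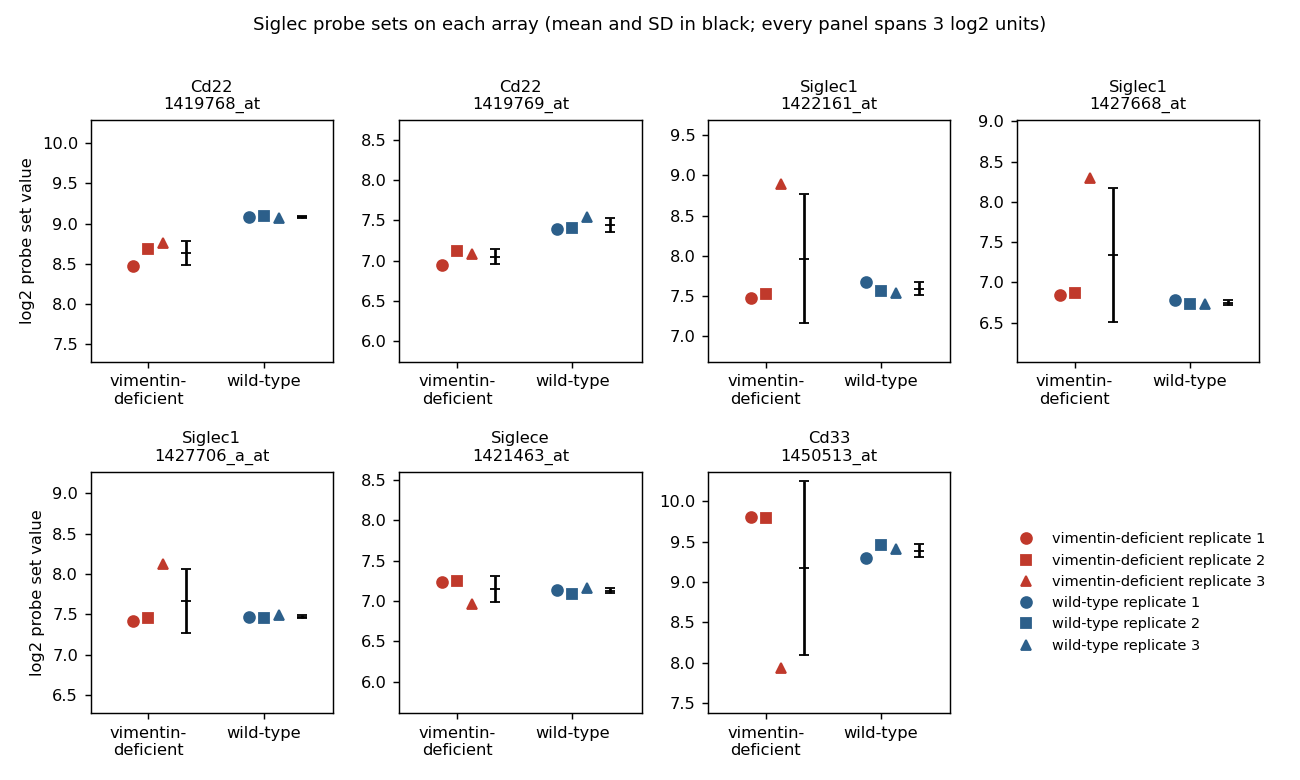
Log2 value of each of the 7 Siglec probe sets on each array, with vimentin-deficient arrays at the left (red) and wild-type arrays at the right (blue) of each panel, a marker shape per replicate number, and the mean with its SD in black. Cd22 is lower on all 3 vimentin-deficient arrays on both probe sets, while Siglec1 and Cd33 are set apart by vimentin-deficient replicate 3, at 8.89 and 7.93 on their brightest probe sets.

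Interferon response genes are given beside Siglec1. Of 23 measured genes of this list, all 23 were above all wild-type arrays on vimentin-deficient replicate 1, as on replicate 2 and on replicate 3. Their median distance from the wild-type mean was 0.78, 0.79 and 1.47 on replicates 1, 2 and 3, where Siglec1 was at -0.11, -0.08 and 1.30. The smallest distances in the list were 0.16, 0.13 and 0.54. All 3 Siglec1 probe sets thus lay below each of the 23 genes on replicates 1 and 2, and within their range on replicate 3. Oas2, a sensor of double-stranded RNA, read 9.42, 9.37 and 11.32 on vimentin-deficient arrays and 8.70, 8.80 and 8.73 on wild-type arrays, and so was above the wild-type arrays on all 3.

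With 6 arrays, limma with Benjamini-Hochberg adjustment over all genes called 0 of the 23 (23 at an unadjusted p under 0.05, as 7.97% of all tested genes were), with a median difference of 0.96 against -0.023 over all tested genes. The 3 with the smallest p were Ifi35 (0.88, SE 0.09), Oas1a (0.96, SE 0.11) and Ifi27l2a (0.68, SE 0.08), with limma adjusted p of 0.124, 0.138 and 0.138. Without replicate 3, where 1.31% of all genes were called higher, 21 of the 23 were called higher. Irf9 (0.32, and 0.48 with 6 arrays) and Mx2 (0.15, and 0.29 with 6 arrays) had higher means as well. Without replicate 3 they did not pass (limma adjusted p = 0.102 and 0.257). The median of the 23 was then 0.80 against -0.013 over all genes. The limit was set on the mean of all 6 arrays, also for this fit. Mx1 and Cxcl10, both called here, read below it on every wild-type array (6.63 to 6.75 and 6.85 to 6.88). They were tested only through their vimentin-deficient values, which were 7.02, 7.19 and 8.34 for Mx1 and 7.22, 7.30 and 8.04 for Cxcl10. The list was chosen with earlier results of these arrays known. The receptor gene Fcgr1, also a macrophage marker, read 9.98, 10.21 and 11.70 on vimentin-deficient arrays and 9.82 to 10.09 on wild-type arrays. The mean of the 8 macrophage markers was 0.35 above the wild-type mean on replicate 3, and -0.04 and 0.00 on replicates 1 and 2. The summed linear level of these markers was 52028 to 65259 on vimentin-deficient and 51695 to 56472 on wild-type arrays. Their part in the Siglec1 value was not tested.

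**Figure D2:**
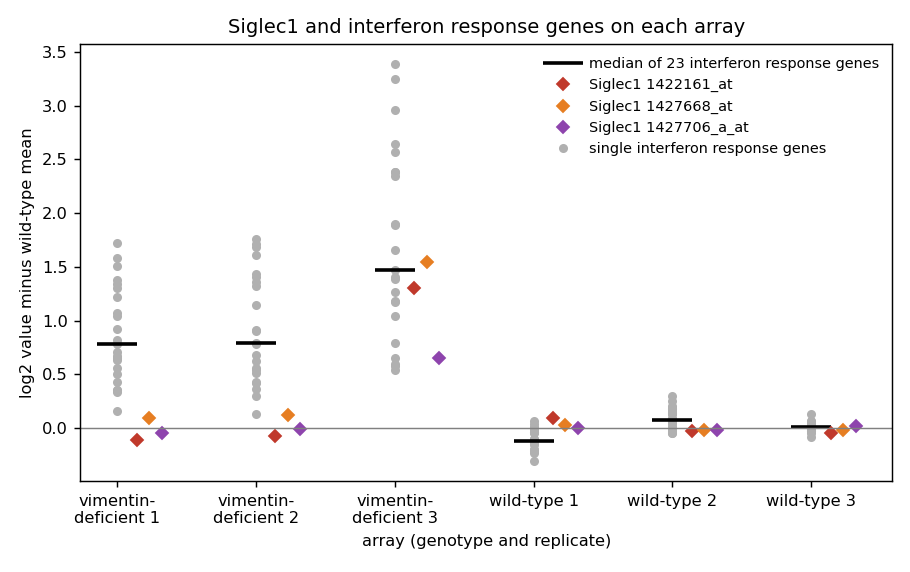
Distance from the wild-type mean, in log2 units, on each array for the 23 interferon response genes (grey, median as a black bar) and for the 3 Siglec1 probe sets (diamonds), vimentin-deficient arrays at the left. The interferon genes lie above 0 on all 3 vimentin-deficient arrays, with medians of 0.78, 0.79 and 1.47, while the brightest Siglec1 probe set is at -0.11, -0.08 and 1.30.

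Of 4 other Siglec genes with a probe set, 2 were tested and did not pass, and 2 were below the limit. Siglecg, an inhibitor of B cells whose counter-receptor is CD24, read 8.73, 8.93 and 8.70 on vimentin-deficient arrays and 8.82, 8.82 and 8.71 on wild-type arrays, a log2 difference of 0.00 (SE 0.08, limma adjusted p = 0.994), and 0.05 without replicate 3. Mag, the myelin-associated glycoprotein, whose gene is the next protein-coding gene to Cd22, read 7.77, 7.90 and 7.55 on vimentin-deficient and 7.75, 7.78 and 7.74 on wild-type arrays (-0.02, SE 0.09, limma adjusted p = 0.974), and had 0.08 without replicate 3.

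Siglecf, a receptor of eosinophils and alveolar macrophages, had a mean below the limit and was not tested. It read 6.60, 6.35 and 7.66 on vimentin-deficient replicates 1, 2 and 3, against 6.46, 6.72 and 6.53 on wild-type arrays, so replicate 3 was the only array above the limit, 1.09 over the wild-type mean. Siglecf and Siglecg lie side by side in the RefSeq gene order, and on replicate 3 Siglecg was -0.13 from the mean of replicates 1 and 2 where Siglecf was 1.18 from it. Of the eosinophil markers 1 of 5, Prg3, was above the limit, at 7.88 to 7.96 on vimentin-deficient and 7.96 to 8.04 on wild-type arrays. Prg2, Epx, Ccr3 and Il5ra were below it. The summed linear level of the 5 was 548 to 623 on vimentin-deficient and 600 to 641 on wild-type arrays. Siglech, of plasmacytoid dendritic cells, read 6.88 to 6.98 on vimentin-deficient and 6.87 to 6.99 on wild-type arrays and was below the limit as well.

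**Figure D3:**
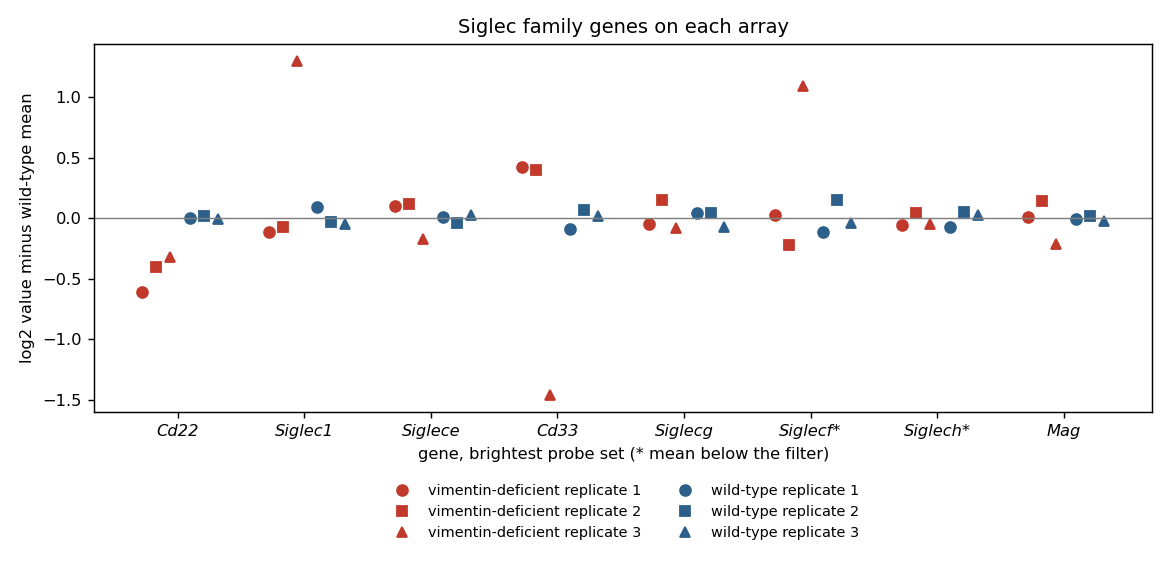
Distance from the wild-type mean, in log2 units, of the brightest probe set of each of 8 Siglec genes on each array, vimentin-deficient arrays in red at the left and wild-type arrays in blue at the right of each gene. Cd22 is below 0 on all 3 vimentin-deficient arrays, and on replicate 3 Siglec1 and Siglecf are above 1 while Cd33 is at -1.46.

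Counted over the 4 genes, 1 had groups that did not overlap with 6 arrays, Cd22, where 10.1% of all tested genes were below all wild-type arrays on each vimentin-deficient array and 5.32% above (15.5% in either direction). Limma with Benjamini-Hochberg adjustment over all genes called 0 of the 4 with 6 arrays (1 at an unadjusted p under 0.05), where it called 0.0223% of all tested genes. Without replicate 3 it called 1 of the 4 lower, Cd22, where 1.03% of genes were called lower, and 1 higher, Cd33, where 1.31% were called higher (2.34% in either direction). With array quality weights it called 1 of the 4, Cd22, as lower, where 0.305% of genes were called lower and 0.387% higher (0.692% in either direction). These counts come from the comparison by which the genes were picked, and nothing is read from them.

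The ligands of Siglecs are made by a pathway of its own, and the question there was whether its genes differed between the genotypes. Of 24 tested genes for synthesis and transfer of sialic acid, 10 had higher and 14 lower means, with a median difference of -0.03, where 8117 of all 13445 tested genes had lower means and the median was -0.023. With 6 arrays limma called 0 of them (3 at an unadjusted p under 0.05, against 7.97% of all tested genes), and without replicate 3 it called 1, against 2.34% of all. That gene was St3gal5, which makes the ganglioside GM3. It read 10.00, 9.85 and 9.57 on vimentin-deficient arrays, all above the wild-type arrays at 9.46, 9.39 and 9.36. Its difference was 0.40 (SE 0.12, limma adjusted p = 0.463) with 6 arrays, and it rose by 0.52 (SE 0.08, limma adjusted p = 0.00871) without replicate 3. Over 15 settings its adjusted p ran from 0.00871 to 0.997, with 2 settings past the threshold. Both of its probe sets were higher, by 0.40 and 0.54.

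St6gal1, the enzyme that builds the sialic acid linkage CD22 binds, read 10.31, 10.32 and 10.36 on vimentin-deficient arrays and 10.44, 10.74 and 10.71 on wild-type arrays. The groups did not overlap, and the difference of -0.30 (SE 0.10) did not pass (limma adjusted p = 0.536). St6galnac4, another sialyltransferase gene, had -0.19 (SE 0.06, limma adjusted p = 0.516). The early synthesis genes Gne, Nans, Nanp and Cmas had differences of -0.09, 0.10, 0.05 and -0.09 with 6 arrays, and of -0.06, 0.30, 0.11 and -0.08 without replicate 3. Cmah, which turns the common sialic acid into its hydroxylated form in mice, had 0.01, and 0.03 without that array.

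Of 6 tested genes that remove or modify sialic acid, 1 had a higher and 5 had lower means, with a median of -0.07 (-0.023 over all genes), and limma called 0 with 6 arrays (1 at an unadjusted p under 0.05, against 7.97% of all genes) and 0 without replicate 3. Npl, the lyase that breaks down free sialic acid, had -0.40 (SE 0.15, limma adjusted p = 0.591), and -0.27 without replicate 3. Siae, an esterase acting on acetylated sialic acid, had -0.20 (SE 0.09), and -0.13 without that array. The lysosomal sialidase gene Neu1 had 0.13 (SE 0.10), and 0.06 without it.

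Of 13 tested signalling partners, 11 had lower means, with a median of -0.07, where 8117 of all 13445 tested genes had lower means and the median was -0.023. Limma called 0 with 6 arrays (1 at an unadjusted p under 0.05, against 7.97% of all genes) and 0 without replicate 3. Hcst, which encodes the adaptor DAP10, read 8.36, 8.63 and 8.16 on vimentin-deficient and 8.73, 8.81 and 8.90 on wild-type arrays (-0.43, SE 0.12, limma adjusted p = 0.462, and -0.32 without replicate 3). The SHP-1 gene Ptpn6 had -0.01 (SE 0.08), the DAP12 gene Tyrobp -0.08 (SE 0.07) and the adaptor gene Grb2 -0.12 (SE 0.08), and without replicate 3 these were 0.00, -0.14 and -0.17.

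Among protein counter-receptors, 5 were tested and limma called 0 with 6 arrays (2 at an unadjusted p under 0.05, against 7.97% of all genes). Without replicate 3 it called 2 higher and 1 lower, where 2.34% of all genes were called. Cd24a, the partner of Siglec-G, read 8.65, 8.21 and 8.30 on vimentin-deficient and 6.78, 7.21 and 7.28 on wild-type arrays, so all 3 were higher (1.30, SE 0.16, limma adjusted p = 0.138). Without replicate 3 it rose by 1.34 (SE 0.15, limma adjusted p = 0.00106, range over 15 settings 0.00106 to 0.866). Ighm, the heavy chain of IgM, to which CD22 binds, read 9.92, 9.87 and 8.82 on vimentin-deficient and 10.70, 10.96 and 10.91 on wild-type arrays, and its log2 difference was -1.32 (SE 0.29, limma adjusted p = 0.306). It fell by 0.96 without replicate 3 (limma adjusted p = 0.000454, range over 15 settings 0.000454 to 0.997), and its 5 probe sets above the limit had differences from -1.32 to 0.12. The CD43 gene Spn, a partner of Siglec-1, had 0.31 (SE 0.18) and rose by 0.53 without replicate 3 (limma adjusted p = 0.00383, range over 15 settings 0.00383 to 0.997). On replicate 3 itself Spn read 7.79, below all wild-type arrays at 7.89 to 7.97. The CD45 gene Ptprc had 0.22 (SE 0.12), and 0.11 (SE 0.08) without replicate 3.

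**Figure D4:**
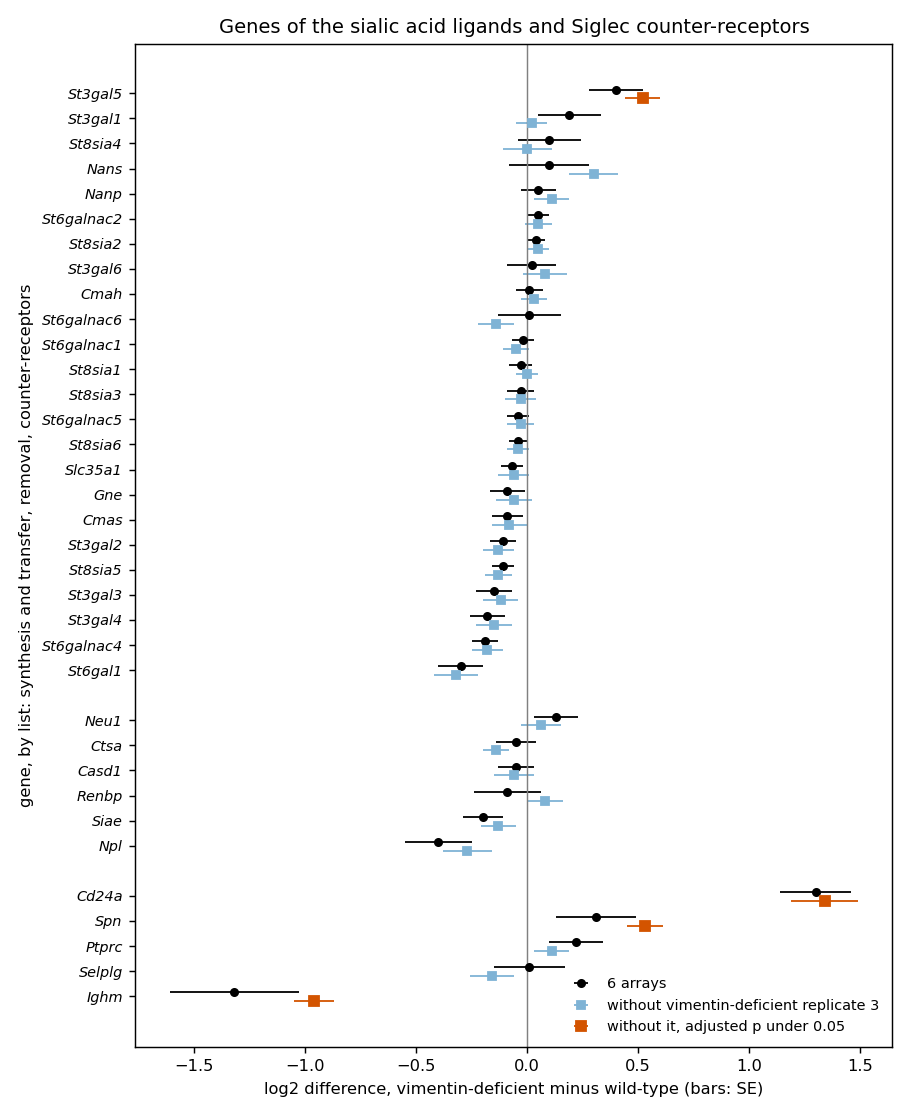
Log2 difference, vimentin-deficient minus wild-type, with its SE for the tested genes of sialic acid synthesis and transfer (top), removal and modification (middle) and Siglec counter-receptors (bottom), with 6 arrays (black) and without vimentin-deficient replicate 3 (blue, or orange where the adjusted p was under 0.05). Most sialic acid genes lie near 0, St3gal5 is at 0.40 and 0.52, and the widest differences are those of Cd24a and Ighm.

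Other inhibitory receptors of myeloid cells were compared in the same fit. Of 10 tested, 8 had lower means, with a median of -0.19, where 8117 of all 13445 tested genes had lower means and the median was -0.023. Limma called 0 with 6 arrays (6 at an unadjusted p under 0.05, against 7.97% of all genes). Cd200r1, whose tail uses a different motif, read 11.06, 11.14 and 11.20 on vimentin-deficient and 11.37, 11.37 and 11.39 on wild-type arrays (-0.25, SE 0.07, limma adjusted p = 0.462). Clec4a2, a C-type lectin receptor, had -0.40 (SE 0.15), and -0.23 (SE 0.08) without replicate 3. Fcgr2b, the inhibitory Fc receptor, had -0.35 (SE 0.13), and -0.24 (SE 0.10) without it. Without replicate 3 limma called 2 of the 10 higher and 0 lower, where 2.34% of all genes were called. By their means 8 of the 10 were still lower without it, with a median of -0.19. Pilra, a receptor that also binds sialylated proteins, rose by 0.57 (SE 0.12, limma adjusted p = 0.0324, range over 15 settings 0.0324 to 0.997) and Cd300lf by 0.34 (SE 0.08, limma adjusted p = 0.0483, range over 15 settings 0.0483 to 0.998). With 6 arrays their differences were 0.26 (SE 0.26) and 0.09 (SE 0.20). Both were lowest on replicate 3, at 7.30 and 8.37, as Cd33 was. On the other arrays Pilra read 8.25 and 8.20 in vimentin-deficient and 7.49 to 7.95 in wild-type macrophages.

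The genes with the most similar course over the 6 arrays were found by the root mean square difference between mean-centred log2 values. For Cd22 these were Ubald1, Etfrf1 and Gm1673, at 0.075, 0.078 and 0.079 log2 units. Ubald1 read 8.93, 9.12 and 9.12 on vimentin-deficient and 9.32, 9.43 and 9.37 on wild-type arrays. For Siglec1 they were 4632427E13Rik, Pla2g7, a lipoprotein-associated phospholipase gene, and the kinase gene Hipk2, at 0.079, 0.081 and 0.084. Pla2g7 read 8.39, 8.43 and 9.60 on vimentin-deficient and 8.57, 8.43 and 8.51 on wild-type arrays. For Cd33 they were the endothelial lipase gene Lipg, the fatty acid desaturase gene Scd1 and Rapsn, at 0.073, 0.12 and 0.13. Lipg read 8.04, 7.96 and 6.13 on vimentin-deficient and 7.41, 7.59 and 7.74 on wild-type arrays. These are descriptions over 6 arrays that share the same genotypes and the same outlying array. Siglece, with a range under 0.5, was given no such list.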

How the data were processed

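Total RNA of 6 macrophage samples was hybridised to Affymetrix whole-genome mouse arrays (1 each), labelled with biotin per the labels' protocols. The series table holds log2 values per probe set as deposited by the authors. Their summary and normalization are not given in the sources used here. They run from 5.43 to 14.50, with array medians from 7.23 to 7.25, and were used as deposited.

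Of 45101 probe sets, 64 were controls, 34945 named 1 gene symbol, 932 several and 9160 none. Symbols were updated by Entrez ID for 34741 of them (GRCm38.p6 gene table). The probe set with the highest mean stood for its gene, which gave 18193 genes, and the 13445 with a mean at or above the 40th percentile were tested. The fit used limma 3.58.1 in R 4.3.3 (lmFit, eBayes with a trend of variance on mean), vimentin-deficient minus wild-type, without covariates. Benjamini-Hochberg adjustment ran over the 13445 genes, with a threshold of 0.05. It was tested on simulated data. The simulation held no outlying array like vimentin-deficient replicate 3. SEs use limma's moderated variance, and SDs are between arrays. Precision is limited by having 3 arrays per genotype. The labels call the samples biological replicates, and p-values measure the spread between them. Promoters are those of RefSeq on GRCm38.p6.

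The members and all gene lists were chosen with earlier results of these data known. Besides the 4 genes, the text names the genes called in each list, or else up to 3 with the smallest p, and for each gene that spans 0.5 log2 units the 3 with the nearest course. Genes called only without replicate 3, and Siglecf, Ptpn6, Oas2, Mx1, Cxcl10, Fcgr1, Itgam, Kit, Blnk and Cd79a, were named after their values were seen. These rules do not cover Gne, Nans, Nanp, Cmas, Cmah, Irf9, Mx2, Siglech, Vim, the other named cell type markers and the neighbouring genes. Alternatives were quantile normalization, median centring, array quality weights, a replicate block, leaving out each array, the filter, the mean of a gene's probe sets and the variance trend.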

Additional observations from a re-analysis of the deposited data

How the results depend on the processing

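The Cd22 difference kept its sign in all settings, between -0.50 and -0.36 in the fits that leave out 1 array. Siglec1 ran from -0.09 to 0.61 in those fits, and it was -0.09 without vimentin-deficient replicate 3. Array quality weights put it at 0.03. Cd33 ran from -0.53 to 0.41, with 0.41 without that array and 0.25 with array quality weights, which gave that array a weight of 0.226. Siglece ran from -0.04 to 0.11 and changed sign without vimentin-deficient replicate 1 (-0.03), vimentin-deficient replicate 2 (-0.04) or wild-type replicate 2 (-0.01). Fewer arrays are the construction of these fits, and a further cause was not tested. The count of genes called was 3 with 6 arrays, 93 with array quality weights and 0 to 315 in the fits without 1 array, with 315 without vimentin-deficient replicate 3, 1 without vimentin-deficient replicate 2 and 0 when any wild-type array was left out. With array quality weights 1 sialic acid synthesis gene, 2 counter-receptors and 16 interferon genes were called. Without 1 array the counts were 0 to 1 for sialic acid synthesis, 0 to 3 for counter-receptors, 0 to 2 for other inhibitory receptors and 0 to 21 for interferon genes, each time with the highest count without vimentin-deficient replicate 3. Counts were 0 in all settings for other Siglecs, sialic acid removal and signalling partners.

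Same-numbered samples had correlations of 0.39, -0.11 and 0.03 between their deviations from the genotype means, and differently numbered samples had -0.38 to 0.29. Deviations from a mean of 3 arrays depend on each other, so these values cannot decide whether the numbers pair samples. With the replicate block 0 genes were called. Siglece, Siglecf and Siglech read near the limit of 6.93, where background signal can compress differences, which was not tested here. So did Siglec1 probe set 1427668_at outside vimentin-deficient replicate 3, and Cd22 probe set 1419769_at on the vimentin-deficient arrays. Siglecf spanned 1.31 over the 6 arrays, and Siglece 0.29.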

Other observations

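Genes close to the Siglec genes in the RefSeq gene order are given by the same measures. Within 3 protein-coding genes of Cd22, the tested Ffar2, Mag, Hamp2 and Hamp had log2 differences between -0.02 and 0.04, where Cd22 had -0.44. Without vimentin-deficient replicate 3 they had 0.00 to 0.08, where Cd22 had -0.50. Within 3 genes of Siglec1, the tested Atrn, Gfra4, Adam33, 1700037H04Rik and Spef1 lay between -0.14 and 0.14 from the mean of vimentin-deficient replicates 1 and 2 on replicate 3, where Siglec1 lay 1.39 above it. Zfp658, the protein-coding gene next to Cd33, was 0.85 below that mean on replicate 3 by the same measure, where Cd33 was 1.88 below it, and Iglon5, the other tested gene within 3 of Cd33, was 0.27 below it.

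Of the macrophage markers, Cd14, a co-receptor for lipopolysaccharide, had a log2 difference of 0.75 (SE 0.14, limma adjusted p = 0.249) with 6 arrays. Without vimentin-deficient replicate 3 it rose by 0.59 (limma adjusted p = 0.00201, range over 15 settings 0.00201 to 0.983). It read 12.76, 12.59 and 13.16 on vimentin-deficient arrays and 12.01, 12.12 and 12.12 on wild-type arrays, and so was higher on all 3.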
